A study of Mus musculus with 8 samples.

Results

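Fos, Jun, Junb, Jund, Egr1, Ier2, Klf6, Ccn1, Ccn2 and Rgs2 are 10 genes, most of whose transcripts are known to rise within minutes of a growth factor, stress or stretch, and they are described here across the epithelium and stroma of the mouse uterus. They were taken by gene symbol from the authors' 4 comparison tables, and 8 of the 10 were found among 5828 gene identifiers. Fos and Ccn1 were not analysed here. The genes were selected on the authors' averages in these tables, with the folds already known, so folds and deposited p-values are given as a description, with no test added. Between genotypes Rgs2 stood out among the 3 genes listed in stroma and Ccn2 among the 8 listed in epithelium, both lower in the knockout. Ccn2 had no value in stroma, so the compartments cannot be set against each other for it. A gene is said to be called where its adjusted p in the authors' deposited table was under 0.05, which held for Rgs2 in stroma and not for Ccn2. Jun, Junb, Jund, Ier2 and Klf6 were not called in any comparison that listed them, nor was Egr1, which had the higher value in knockout epithelium.

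The animals were 4 Ezh2cKO females (KO below) of the genotype EZ fl/fl; Prcre/+, in which floxed Ezh2 alleles meet a Cre recombinase expressed wherever the progesterone receptor gene is active. They were set against 4 wild-type females (WT below) of the genotype EZ fl/fl, which carried the same floxed alleles without Cre. All 8 mice were of mixed C57BL/6 and 129SvEv background, 1 of each genotype from each of 4 litters, had their ovaries removed at postnatal day 71 ± 4 and gave their uteri at day 112 ± 11. Ezh2 encodes the methyltransferase that places the repressive histone mark H3K27me3, and since its own transcript was not analysed here, loss of Ezh2 is taken from the labels. Visium, the array used, captures messenger RNA of a tissue section on barcoded spots, each of which can hold several cells. The authors named spots epithelium or stroma and pooled them over the animals of a genotype, which leaves 1 value per gene for each of 4 groups and no spread between animals.

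Immediate-early genes need no new protein to be transcribed. Many of them encode transcription factors: Jun, Junb and Jund proteins pair with Fos proteins to form AP-1, and Egr1 and Klf6 encode zinc finger factors. Kinase cascades reach their promoters through serum response factor (SRF) and CREB, while stretch and cell shape act on Ccn1 and Ccn2 through the YAP and TAZ coactivators, TEAD factors and SRF. In the uterus several of these genes are known to respond to estrogen, which ovariectomy withdraws. Rgs2 encodes an inhibitor of signalling through Gq-coupled receptors and is known for its role in smooth muscle.

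The promoters of Rgs2 and Jun are shown because Rgs2 was the called gene and Jun is the founding AP-1 gene, also measured in all 4 groups. Each line gives the 250 bases before the RefSeq start on GRCm38.p6, read 5′ to 3′ on the minus strand, from chr1:144004150-144004399 for Rgs2 and chr4:95052223-95052472 for Jun. Capitals mark matches, on either strand, to the GC box GGGCGG, the short CRE site TGACG, the EGR site GCGNGGGCG, the sequence TGACATCA and the MEF2 site.
Rgs2: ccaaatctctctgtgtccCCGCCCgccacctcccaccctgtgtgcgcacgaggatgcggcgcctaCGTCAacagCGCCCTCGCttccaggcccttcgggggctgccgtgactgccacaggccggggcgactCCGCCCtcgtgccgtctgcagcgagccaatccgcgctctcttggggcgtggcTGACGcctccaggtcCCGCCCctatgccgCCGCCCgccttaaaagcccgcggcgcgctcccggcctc
Jun: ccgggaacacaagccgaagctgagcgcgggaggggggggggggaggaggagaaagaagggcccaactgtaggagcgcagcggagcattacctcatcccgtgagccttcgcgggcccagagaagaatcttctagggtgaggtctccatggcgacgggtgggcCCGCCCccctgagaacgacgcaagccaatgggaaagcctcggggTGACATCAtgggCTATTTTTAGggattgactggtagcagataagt
The Rgs2 window held 4 GC boxes, an EGR site that begins 176 bases before the start, and short CRE sites 185 and 67 bases before it. The Jun window held 1 GC box, TGACATCA 45 bases before the start and a MEF2 site 33 bases before it. TGACATCA and the MEF2 site were added to the search after the Jun sequence had been read. Among 32851 promoter windows of this length, 32.7% held a GC box, 17.8% a short CRE site, 4.70% an EGR site, 2.93% TGACATCA and 2.92% a MEF2 site. G and C made up 72.4% of the Rgs2 window and 61.2% of the Jun window, against a median of 52.4% over all promoters. The shares are not adjusted for this. Neither window matched the CArG box bound by SRF (1.47% of windows), the full CRE TGACGTCA (1.55%), the AP-1 site TGANTCA (6.75%) or the TEAD site GGAATG (12.6%). Of the 8 genes, 5 had a promoter in the RefSeq table, and Klf6 shared TGACATCA, at 119 bases before its start. No 2 matches overlapped in either window. Matches describe letters in these windows and are not measured binding.

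UMI sums per group were recovered from the deposited averages and folds, and a level below is a group's UMI sum per unit of the authors' size factors, put on 1 scale for all 4 groups. Over all listed genes the largest pool was KO epithelium with 1552958 UMIs and the smallest WT stroma with 416747. KO stroma was 2.01 times as deep as WT stroma in summed size factors. Levels follow UMIs and are compared within a gene, not between genes. Every 95% interval covers counting error only. The compartment names held against their markers: 10 of 15 simple epithelium markers had sums in all groups, with a summed level of 148 for KO and 171 for WT epithelium, against 44.6 for KO and 19.8 for WT stroma. The 10 endometrial stroma markers summed to 146 for KO and 106 for WT epithelium, and to 285 for KO and 336 for WT stroma. Dcn made up most of the stroma sums, at 169 in KO and 229 in WT stroma. Between genotypes in stroma 5 of the 10 were higher in KO and 5 lower. In WT uterus 9 of the 10 were lower in epithelium, the exception being Hoxa11 (3.13 in epithelium and 2.73 in stroma). For 9 of 12 smooth muscle markers the summed level was 20.3 for KO and 29.8 for WT epithelium, against 41.5 for KO and 86.8 for WT stroma. Thus KO stroma spots held 2.25 times the epithelial marker level of WT stroma spots and 0.479 times their smooth muscle level. In such pools fewer cells of a type and less RNA per cell cannot be told apart.

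**Figure D1:**
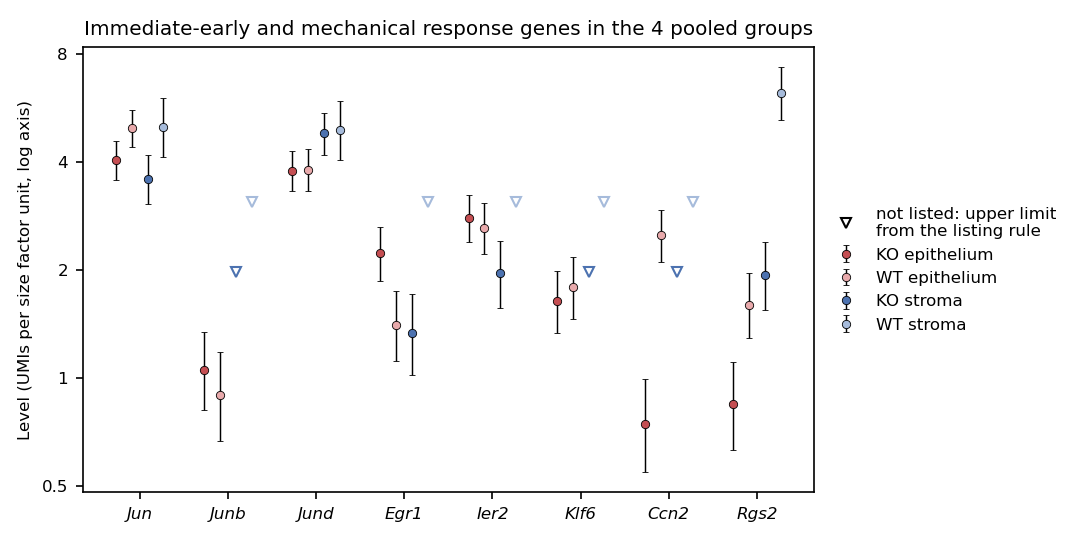
Level of each gene (UMIs per size factor unit, log axis) in KO epithelium, WT epithelium, KO stroma and WT stroma, with 95% exact Poisson counting intervals as bars. Open triangles are upper limits for groups in which a gene was not listed. Rgs2 reached 6.21 in WT stroma, above its intervals in the other groups, and Ccn2 was at 0.746 in KO epithelium against 2.50 in WT epithelium.

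Jun encodes the AP-1 subunit that gives the family its name. In epithelium it had 249 UMIs in KO and 282 in WT, levels of 4.04 and 4.96. In stroma it had 161 UMIs in KO and 112 in WT, levels of 3.57 and 5.00. Both KO levels lay below both WT levels. The fold of KO over WT was 0.815 in epithelium (0.684 to 0.970) and 0.714 in stroma (0.558 to 0.918). In the authors' deposited tables Jun had an adjusted p of 1 in both comparisons. By level the order was KO stroma, KO epithelium, WT epithelium and WT stroma, and only the step between KO epithelium and WT epithelium had a counting interval that left out 1. Between compartments the epithelium-over-stroma fold was 1.13 in KO (0.923 to 1.39) and 0.991 in WT (0.793 to 1.24), and both counting intervals include equal levels.

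Jund encodes the AP-1 subunit that is the least inducible of the family. In epithelium it had 233 UMIs in KO and 216 in WT, levels of 3.78 and 3.80. In stroma it had 216 UMIs in KO and 110 in WT, levels of 4.80 and 4.91. Both epithelium levels lay below both stroma levels. KO over WT was 0.995 in epithelium (0.824 to 1.20) and 0.976 in stroma (0.772 to 1.24), and centring on the median gene turned the sign of both small differences. Epithelium over stroma was 0.788 in KO (0.652 to 0.952) and 0.772 in WT (0.611 to 0.981). The authors' deposited tables give these compartment differences an adjusted p of 0.81 in KO and 0.608 in WT, so neither was called.

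Junb, the subunit that often restrains Jun, was listed in the epithelium table alone. It had 65 UMIs in KO epithelium and 51 in WT epithelium, levels of 1.05 and 0.896 with a fold of 1.18 (0.803 to 1.73).

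Egr1 encodes a zinc finger factor that serves as a standard readout of growth factor and estrogen signalling. It had 137 UMIs in KO epithelium and 80 in WT epithelium, levels of 2.22 and 1.41, and 60 UMIs in KO stroma, a level of 1.33. The KO over WT fold in epithelium was 1.58 (1.19 to 2.11), and 147 of 5811 listed genes had a higher one. The authors' deposited table gives this difference an adjusted p of 1. In KO uterus Egr1 was 1.67 times as high in epithelium as in stroma (1.22 to 2.30), and the authors' deposited table puts its adjusted p at 0.36.

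Ier2, a nuclear protein gene of the same rapid class, had 172 UMIs in KO epithelium and 149 in WT epithelium, levels of 2.79 and 2.62, and 88 UMIs in KO stroma, a level of 1.95. Its KO over WT fold in epithelium was 1.07 (0.850 to 1.34). Like Egr1 it was higher in KO epithelium than in KO stroma, 1.43 times (1.10 to 1.87), and the authors' deposited table gives an adjusted p of 0.546. Klf6, a Krüppel-like factor induced by injury, had 101 UMIs in KO epithelium and 102 in WT epithelium, levels of 1.64 and 1.79 with a fold of 0.914 (0.687 to 1.22). Junb, Ier2 and Klf6 all had an adjusted p of 1 between genotypes in the authors' deposited epithelium table, and their counting intervals include equal levels.

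**Figure D2:**
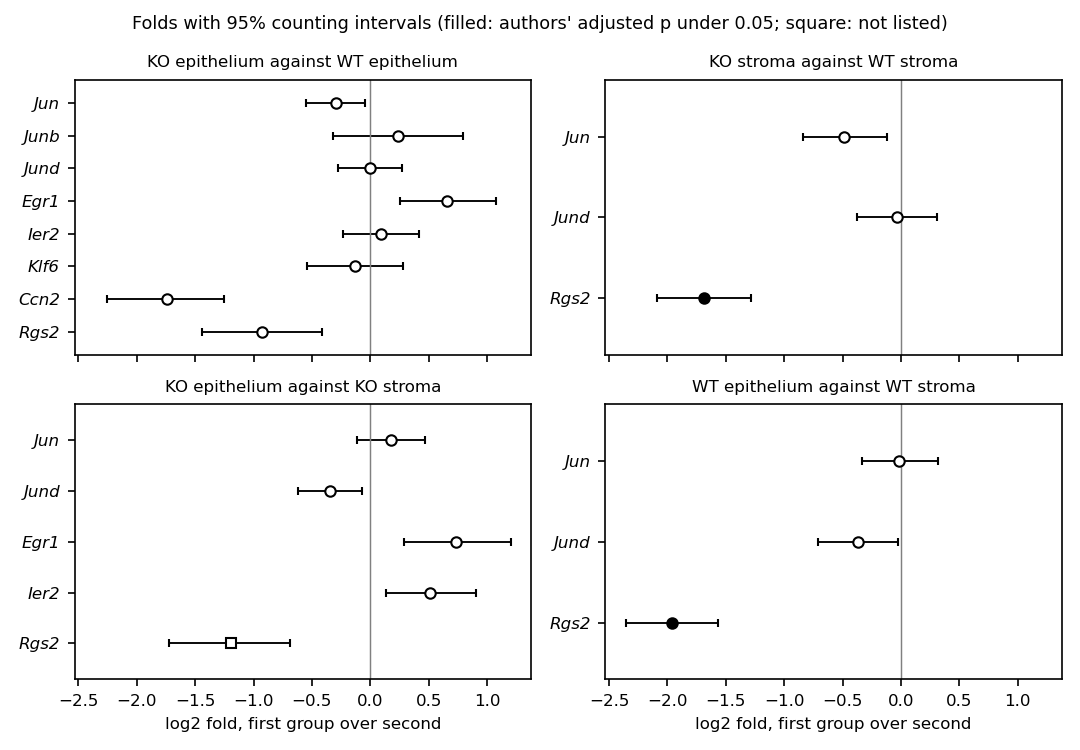
Log2 fold of the first group over the second for each gene in the 4 comparisons, with 95% exact counting intervals. Filled circles have an adjusted p under 0.05 in the authors' tables, and the square is Rgs2 in KO uterus, a fold from recovered sums of a gene that table does not list. Rgs2 is the only filled point, at 0.311-fold in KO over WT stroma and 0.258-fold in WT epithelium over WT stroma.

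Ccn2 encodes a secreted matrix protein, formerly called connective tissue growth factor, and is among the best known targets of YAP and TEAD. Its protein-coding gene spans chr10:24595442-24598683 of GRCm38, on the plus strand. It had 46 UMIs in KO epithelium against 142 in WT epithelium, levels of 0.746 and 2.50. The counting intervals of the levels did not overlap (0.546 to 0.995 in KO and 2.10 to 2.94 in WT). The fold was 0.299 (0.210 to 0.420), and 6 of 5811 genes had a lower one. Genes were listed where either average exceeded 1, and for Ccn2 only the WT average did (2.50, against 0.746 in KO). Being listed thus favoured a lower KO value, so the rank is a description only. The authors' deposited table gives Ccn2 an adjusted p of 0.17, with 12 genes at a smaller value, so it was not called. None of the 8 genes was called in this comparison, where 0.12% of all listed genes were. Smooth muscle markers were also lower in KO epithelium than in WT epithelium, at 0.683 times their summed level (0.634 to 0.735). Of 10 listed markers 9 were lower, where at least 64.2% of all listed genes were. Of the 6 genes with a lower fold than Ccn2 (log2 fold -1.74), 2 are smooth muscle markers: Cnn1, calponin, at a log2 fold of -2.22 (20 UMIs in KO and 86 in WT) and Tagln, transgelin, at -1.82 (50 UMIs in KO and 163 in WT). Acta2, smooth muscle actin, stood at -1.41 (116 UMIs in KO and 284 in WT), and none of these 3 was called. Cnn1 and Tagln, like Ccn2, were listed through their WT averages alone. The part of smooth muscle in the value of Ccn2 was not tested.

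Other targets of YAP and TEAD were looked at from a list of 24, of which 15 were listed in epithelium. None was called between genotypes, and 10 had a lower value in KO. At least 64.2% of all 5811 genes were lower in KO too, the share with a lower fold than Jund (0.995). The median log2 fold was -0.20 for the targets, against -0.10 over all genes. The lowest of them, named after their values were seen, were Ajuba, a LIM domain protein of cell junctions (54 UMIs in KO epithelium and 101 in WT epithelium, log2 fold -1.02), and Ptpn14, a phosphatase (64 and 102 UMIs, log2 fold -0.79). Neither was as low as Ccn2, and Ajuba too was listed through its WT average alone (1.78, against 0.876 in KO). The coactivators themselves gave log2 folds of 0.14 for Yap1 and 0.60 for Wwtr1, the gene of TAZ, and the authors' deposited table puts both at an adjusted p of 1. Among 16 listed upstream regulators (kinases, CREB and ATF factors, SRF partners, YAP, TAZ and TEAD factors) 8 had a higher and 8 a lower value in KO epithelium, and none was called.

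**Figure D3:**
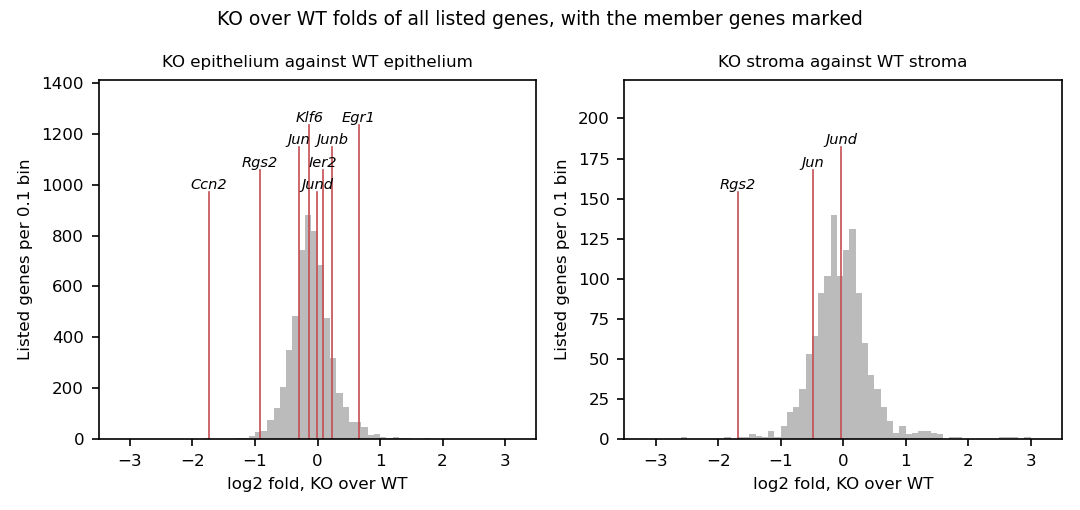
Number of listed genes per bin of 0.1 in log2 fold (KO over WT), for epithelium on the left and stroma on the right, with lines at the genes described. Ccn2 lies in the far left tail in epithelium with 6 genes below it, Rgs2 in that of stroma with 5 below it, and Jund, Ier2 and Klf6 lie in the centre. Ccn2 in epithelium and Rgs2 in stroma were listed through their WT averages alone.

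Rgs2 was the one gene of the set called between genotypes. Its protein-coding gene spans chr1:143999338-144004161 of GRCm38, on the minus strand. In epithelium it had 52 UMIs in KO and 91 in WT, levels of 0.843 and 1.60. In stroma it had 87 UMIs in KO and 139 in WT, levels of 1.93 and 6.21. The WT stroma level stood apart from the rest, since its interval began at 5.22 and the next highest interval ended at 2.38. In stroma the KO level was 0.311 times the WT level (0.235 to 0.410), which is 3.21-fold lower (2.44 to 4.25), and 5 of 1191 genes had a lower fold. Only the WT average of Rgs2 exceeded the listing average of 1 there (1.64, against 0.510 in KO). Being listed thus favoured a lower KO value, and the rank is a description only. The authors' deposited table gives an adjusted p of 0.000351, with 1 gene at a smaller value. That comparison called 1.51% of all listed genes, 0.756% as lower in KO. Of the set, 3 genes were listed there, Rgs2 being called and Jun and Jund not. A filter that drops the 25% of genes with the lowest level removes Rgs2 from that table, and the count of called genes of the set is then 0.

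In epithelium Rgs2 also had the lower value in KO, 0.527 times that of WT (0.368 to 0.749), a difference the authors' deposited table does not call (adjusted p = 1). There 54 of 5811 genes had a lower fold, and again Rgs2 was listed through its WT average alone (1.60, against 0.843 in KO). Over the 1755 genes with sums in all 4 groups, 38.8% had a KO over WT fold below 1 in both compartments. In both at once, 2 genes had a lower fold than Rgs2, among them the smooth muscle marker Myh11. Its levels were 0.746 in KO and 1.58 in WT epithelium, and 1.71 in KO and 6.12 in WT stroma. This joint rank is a description only, because Rgs2 was chosen with its folds known and listed through WT averages alone. The KO over WT fold of Rgs2 in epithelium was 1.69 times that in stroma (1.10 to 2.61, counting error only). This difference of 0.76 on the log2 scale could not be tested between animals. For Jun the same difference was 0.19 (-0.24 to 0.62) and for Jund 0.03 (-0.40 to 0.45).

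Between compartments Rgs2 was lower in epithelium in both genotypes. In WT uterus epithelium held 0.258 times the level of stroma (0.196 to 0.338), which is 3.88-fold lower. The authors' deposited table puts its adjusted p at 4.61e-09. That table called 28.8% of its genes, 15.7% as lower in epithelium, and 87 genes had a smaller p than Rgs2. Rgs2 was listed there through its WT stroma average alone (1.99, against 0.513 in WT epithelium). In KO uterus epithelium held 0.437 times the level of stroma (0.303 to 0.622), a fold from recovered sums without a deposited p, because the averages on that table's scale were 0.426 in KO epithelium and 0.975 in KO stroma and the tables list genes above 1. The KO table, which called 9.88% of its genes, thus held 4 genes of the set, none of them called. Over the 4 groups the level of Rgs2 was lowest in KO epithelium and highest in WT stroma, 7.36-fold apart (5.32 to 10.3). Its intermediate levels, 1.93 in KO stroma and 1.60 in WT epithelium, had a ratio of 1.21 (0.890 to 1.64) and were not separated by counting error.

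The genes with profiles most like that of Rgs2 include several of smooth muscle. Over the 4 groups, the 4 genes with the smallest root mean square difference from its centred log2 profile among 876 genes at or above the median level were Acta2 (0.19), Myl9, a myosin light chain (0.21), Bc1 (0.40) and Cald1, caldesmon (0.41). This ranking for Rgs2 alone was added after its values were seen. Acta2 had levels of 1.88 in KO and 4.99 in WT epithelium, and of 5.42 in KO and 15.1 in WT stroma. The genes nearest to the median profile of Rgs2, Jun and Jund together, as ranked by the rule for the set, were Cltc, Luc7l3, Selenow, Eef1a1 and Snrnp70 (0.06 to 0.07). Cltc, the clathrin heavy chain, had levels of 5.87 in KO and 6.24 in WT epithelium, and of 6.42 in KO and 7.68 in WT stroma. These are likenesses over 4 points that share their libraries and depth.

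**Figure D4:**
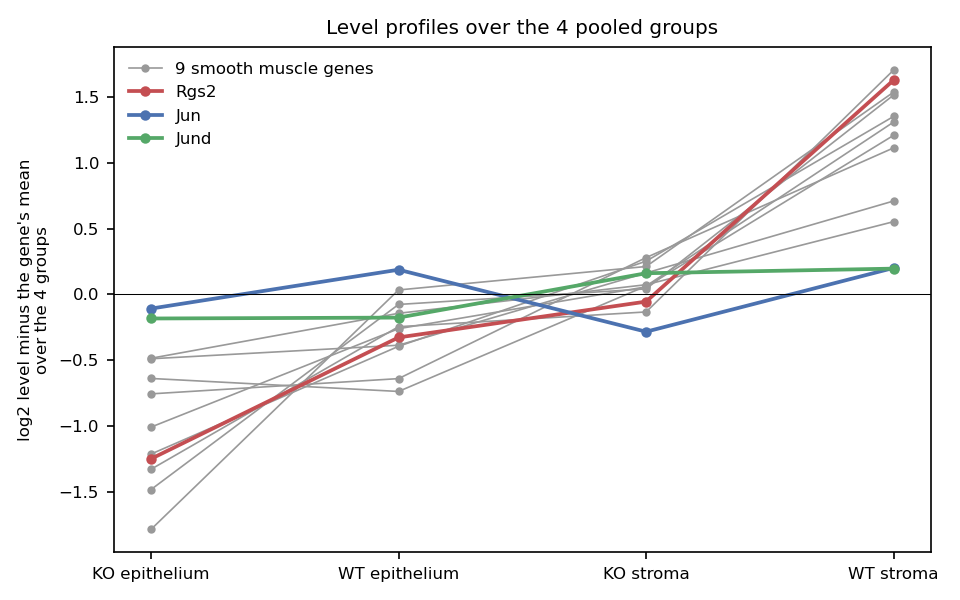
Log2 level minus the gene's own mean over the 4 pooled groups, for Rgs2, Jun, Jund and 9 smooth muscle genes (grey). Rgs2 lies at -1.25 in KO epithelium and at 1.63 in WT stroma, within the band of the grey lines at both ends, whereas Jun lies between -0.28 and 0.20 and Jund between -0.18 and 0.20.

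Smooth muscle markers moved with Rgs2 in stroma. All 9 markers listed there had a lower value in KO, and their median log2 fold was -1.15, against -0.05 over all 1191 genes. Of the 9, 4 were called (Acta2, Myh11, Tagln and Cald1), where 0.756% of all listed genes were called lower. Myh11, Tagln, Tpm2 and Smtn were listed through their WT averages alone, so being listed favoured a lower KO value for them, as for Rgs2. Per 1000 UMIs of the 9 markers with sums in all groups, Rgs2 had 41.5 UMIs in KO and 53.7 in WT epithelium, and 46.5 in KO and 71.6 in WT stroma. Taken per smooth muscle UMI, the KO over WT ratio of Rgs2 was 0.650 in stroma (0.493 to 0.856) and 0.772 in epithelium (0.545 to 1.09). Myh11, the smooth muscle myosin heavy chain, was 3.58-fold lower in KO stroma (77 UMIs in KO and 137 in WT), a larger fold than that of Rgs2. Blood and vessel markers were lower as well: the 2 hemoglobin genes with sums in all groups stood at 0.387 times the WT stroma level in KO stroma (0.327 to 0.457), and 3 of 9 endothelial markers at 0.703 times (0.610 to 0.810). The epithelial markers stood 2.25 times as high in KO stroma (2.03 to 2.50). The part of these markers in the Rgs2 difference was not tested beyond the ratios given.

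Among 20 further RGS genes, Rgs3 and Rgs5 were listed. Rgs5, a gene of pericytes and vascular muscle, had 179 UMIs in KO and 99 in WT epithelium, and 251 in KO and 121 in WT stroma. Its stroma levels were 5.57 in KO and 5.41 in WT, a log2 fold of 0.04. The authors' deposited tables call Rgs5 lower in epithelium than in stroma in KO (0.521-fold, adjusted p = 0.0262) and in WT (0.322-fold, adjusted p = 1.87e-06). Rgs3 had levels of 3.02 in KO and 2.23 in WT epithelium, and of 4.20 in KO and 2.59 in WT stroma, a log2 fold of 0.70 in KO over WT stroma without a call.

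Of 60 other immediate-early genes, 29 were listed in epithelium and 8 in stroma, and none was called between genotypes in either. In epithelium 16 had a higher and 13 a lower value in KO, where at least 64.2% of all listed genes were lower. The median log2 fold was 0.05, against -0.10 over all genes. In stroma 4 were higher and 4 lower, with a median of 0.02 against -0.05. The extremes in epithelium, named after their values were seen, were Ppp1r15a, a regulator of the stress-induced block of translation (29 UMIs in KO epithelium and 64 in WT epithelium, log2 fold -1.26), and Gadd45g, a growth arrest gene (114 and 56 UMIs, log2 fold 0.91). Klf10 followed at 0.76 and Id1, an inhibitor of basic helix-loop-helix factors, at 0.67. Ppp1r15a, Gadd45g and Klf10 were listed through their higher average alone, which favoured the direction seen. Egr1, at 0.66, thus stood beside Klf10 and Id1 in epithelium, and no member of the wider list was as low as Ccn2.

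Between compartments, 6 of the 12 genes of this wider list that were listed in WT uterus were called, where 28.8% of all listed genes were. Klf2, a flow-responsive factor of endothelium, was 0.248-fold in epithelium relative to stroma (0.178 to 0.343), Ier5 0.418-fold, Klf4 0.424-fold, the antiproliferative gene Btg1 0.438-fold and Zfp36l1, which encodes a protein that destabilises messenger RNA, 0.526-fold. Id2 went the other way, at 2.30-fold (1.85 to 2.87). In KO uterus 1 of 17 listed genes was called, where 9.88% of all were: Klf2 at 0.380-fold in epithelium relative to stroma (0.291 to 0.492). Of the set itself, Rgs2 shared the direction of Klf2, while Jun was near equal and Egr1 and Ier2, listed in the KO table, were higher in epithelium without a call. Among other Krüppel-like factors Klf9 was called lower in epithelium in both genotypes (0.378-fold in KO and 0.246-fold in WT), and in KO uterus Klf15 was lower (0.422-fold) and Klf5, a factor of epithelium, higher (2.82-fold) in epithelium than in stroma. Klf6 was not listed in either compartment table.

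Targets of SRF and its MRTF coactivators were taken as a list of 21 that shares 8 genes with the smooth muscle markers. In KO over WT stroma 3 of 12 listed targets were called lower (Acta2, Tagln and Cald1) and none higher. By value 10 were lower and 2 higher, with a median log2 fold of -0.73. The median over all genes there was -0.05, and 0.756% of them were called lower. All 3 called targets are also smooth muscle markers. The listed targets outside the smooth muscle list were not called. Their log2 folds were 0.13 for Actg1, 0.04 for Actb, -0.02 for Zyx, -0.13 for Myh9, -0.41 for Flna and -0.62 for Tpm1. In KO over WT epithelium none of 17 was called, with a median of -0.16 against -0.10 over all genes. Its lowest members, named after their values were seen, were Cnn1 (-2.22) and Tagln (-1.82), both below Ccn2, then Acta2 (-1.41) and Tpm1, a tropomyosin (-1.10). Actb, the cytoplasmic actin of the same list, had no call between genotypes. It had levels of 46.1 in KO and 44.9 in WT epithelium, and of 61.8 in KO and 60.1 in WT stroma. Between compartments in WT uterus 8 of 15 listed targets were called, all lower in epithelium, where 15.7% of all listed genes were called lower. Among them were Cald1 (0.242-fold) and Mylk, the myosin light chain kinase (0.296-fold). All 8 but Flna are also smooth muscle markers. Of the YAP and TEAD targets, against the same 15.7%, 4 of 8 were called lower in WT epithelium than in WT stroma (Igfbp3 0.105-fold, Fstl1 0.333-fold, Rbms3 0.393-fold and Axl 0.417-fold) and Wwc1, a regulator of the Hippo kinases, higher (5.48-fold). Wwtr1 itself was called lower in WT epithelium, at 0.356-fold. None of the 4 remaining CCN genes was listed in any table.

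**Figure D5:**
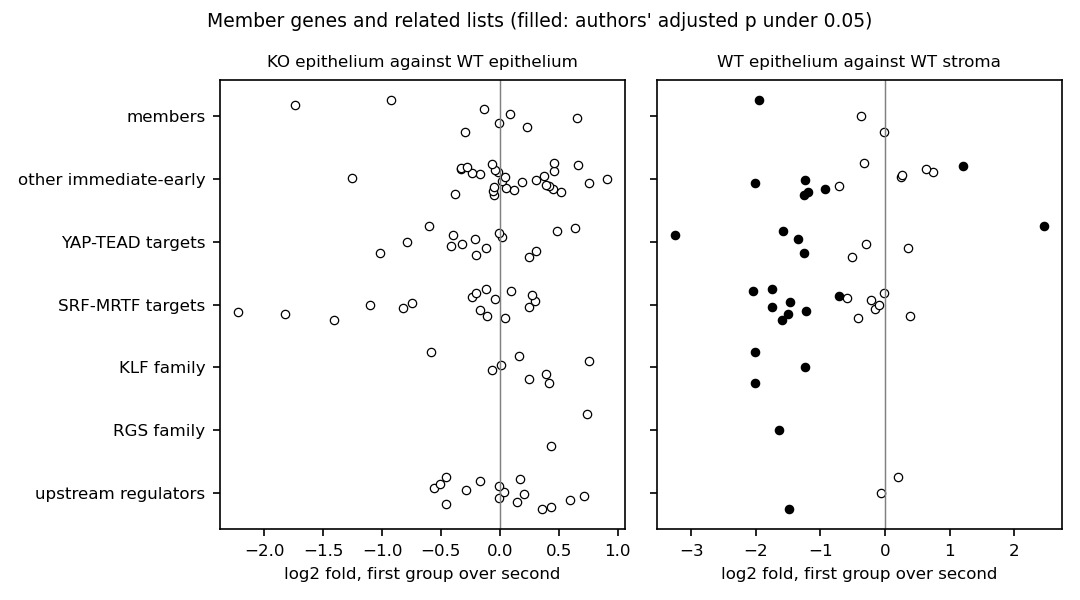
Log2 fold of each listed gene by gene list, for KO over WT epithelium on the left and WT epithelium over WT stroma on the right. Filled points have an adjusted p under 0.05 in the authors' tables. No point is filled on the left, where Ccn2 is the lowest of the 8 genes at -1.74, and on the right Rgs2 (-1.96) lies with called genes such as Klf2 (-2.01) and Cald1 (-2.05).

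Groups with no value for a gene can still be bounded. In all tables, every gene with both sums known was listed when an average exceeded 1 and unlisted otherwise, with 0 exceptions (for KO against WT stroma, 1191 listed and 567 unlisted). If the rule also holds for the genes not listed, Ccn2, Klf6 and Junb had at most 89 UMIs in the stroma pool of KO and 69 in that of WT, levels of at most 1.98 and 3.08. Egr1 and Ier2 would have had at most 69 UMIs in WT stroma. These limits do not settle how the stroma pools compare with one another for those genes, nor with epithelium, except that Ccn2 in KO stroma lay below its WT epithelium level of 2.50.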

How the data were processed

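Sections of 10 µm from 4 KO and 4 WT uteri were profiled on Visium slides, per the labels' protocols. GRCm38 is the genome build named, per the submitters' processing notes, whereas aligner, spot naming and statistical test were not given in the sources used here. Per the file headers, the authors deposited 4 tables with an average score (no unit named) for each pool of spots, log2 fold changes and adjusted p-values. That the averages are UMIs scaled by size factors is inferred from the recovery described next.

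UMI sums were recovered by finding, for each table, the pair of size factor sums that returns the deposited log2 fold changes with a pseudocount of 1. Multiplied by these, 100% of averages came within 0.01 of whole numbers, and no sum differed between tables. The step was tested on simulated data. Folds use sums per size factor with no pseudocount. Their intervals are exact Clopper-Pearson, those of levels exact Poisson and those of ratios of folds normal approximations on the log scale. They cover counting error, not spread between animals, for which the tables hold no values. A gene was called at a deposited adjusted p-value under 0.05.

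Members, lists and alternatives were chosen with earlier results of these data known. Genes named were the 10 members, genes of the pathway and family lists called in a table (up to 6 per list and comparison, by fold) and the 5 nearest profiles among genes at or above the median level. Ajuba, Ptpn14, Yap1, Wwtr1, Ppp1r15a, Gadd45g, Klf10, Id1, Actb, Rgs3, Tpm1, Myh11 and, in epithelium, Cnn1, Tagln and Acta2 were named after their values were seen, as were the profiles nearest to Rgs2 alone and its fold in KO uterus. The same holds for Actg1, Zyx, Myh9, Flna, Dcn and Hoxa11. Positions are from GENCODE M21 and promoters from RefSeq. Python 3.11.15, NumPy 2.4.6, SciPy 1.17.1, pandas 2.3.3 and matplotlib 3.10.9 were used.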

Additional observations from a re-analysis of the deposited data

How the results depend on the processing

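Folds were recomputed with the deposited log2 fold change, centring on the median gene and scaling by UMIs of genes in all 4 tables, and calls at a threshold of 0.01, at a minimum absolute log2 fold of 1 and without the lowest 25% of genes by level. Of 72 values for single genes, 72 kept their call or stayed within their counting interval, though Jund changed sign in both genotype comparisons on centring. Little could change: rescaling moved log2 folds by about 0.10 at most, and the 0.01 threshold left every fold as it was. The count of 72 is therefore no measure of robustness. Of 33 counts, medians and differences between genotype effects, the last added after seeing the data, 32 were as in the report within the same limits. The exception was the count of genes called in KO against WT stroma, 0 without the lowest 25% of genes, a filter that removes Rgs2. Centring added 0.10 to log2 folds of KO over WT epithelium. No paired analysis was possible because values per animal are not in these pooled averages, and for that reason no replicate could be left out in turn. Ccn2 in KO epithelium rests on 46 UMIs and Rgs2 there on 52, which limits their precision.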
